A study of Mus musculus with 21 samples.

Results

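The genes described here are 43 type I interferon antiviral genes, which cells can switch on after type I interferon has bound its receptor. They were followed in sorted inflammatory monocytes (IMs) of mice with and without lung squamous carcinoma. Which signal set the levels of these genes was not tested. They were taken from the count table by gene symbol, and all 43 were among its 23420 genes and passed the filter on low counts in every comparison. After enrichment with a monocyte kit, live cells were gated on CD45, CD11b and high Ly6C without Ly6G, and cells with Siglec-F were discarded from lung tissue. The 21 RNA-Seq libraries fall into 5 groups. IMs from bone marrow (BM IMs) of healthy FVB mice (n = 3) and healthy DBA2 mice (n = 3) were the baselines, and tumor IMs (TIMs) came from LN2E1 primary lung tumors (n = 5) and LN2E1 lymph node metastases (n = 5) in FVB mice and from lungs of DBA2 mice with LN4K1 tumors (n = 5). KAL-LN2-E1, called LN2E1, is a metastatic mouse lung squamous carcinoma line that was injected into the lung at 500000 cells per mouse, and LN4K1, derived from the KLN-205 line, was injected into a vein at 300000 cells per mouse, so that strain, cell line, injection route and tissue all differ between the models and cannot be told apart. The labels give no age or sex and do not tie libraries to animals, and the methods call the libraries technical replicates, so that the p-values may measure technical spread alone.

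Type I interferons signal through the IFNAR receptor and the kinases JAK1 and TYK2 to a complex that contains STAT2 and IRF9 and binds interferon-stimulated response elements (ISREs) near the starts of its target genes. Many of the targets feed back on the pathway as sensors of viral nucleic acid or as transcription factors, whereas others, such as the IFIT, OAS and Mx proteins, block viral RNA or its translation. Myeloid cells keep a low tonic level of this response in the absence of infection. IRF7 amplifies the response by driving the production of further interferon.

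The 100 bases before the transcription start are shown for 5 genes on which the comparisons turn, to show which of them carry an ISRE core, written GAAANNGAAA and searched on both strands. They are from RefSeq on GRCm38.p6, the C57BL/6J reference and neither of the mouse strains used, and read 5′ to 3′ on the strand of the gene with the core in capitals. The windows are chr4:156200819-156200918 (minus strand) for Isg15, chr5:120777660-120777759 (minus) for Oas3, chr5:120907526-120907625 (minus) for Oas1a, chr7:141266425-141266524 (minus) for Irf7 and chr3:151749911-151750010 (minus) for Ifi44.
Isg15: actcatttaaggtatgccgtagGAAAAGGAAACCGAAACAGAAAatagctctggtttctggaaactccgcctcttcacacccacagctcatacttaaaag
Oas3: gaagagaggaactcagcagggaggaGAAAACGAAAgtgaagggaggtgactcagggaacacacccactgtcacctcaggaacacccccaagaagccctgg
Oas1a: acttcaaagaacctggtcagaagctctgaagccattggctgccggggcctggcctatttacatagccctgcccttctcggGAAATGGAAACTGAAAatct
Irf7: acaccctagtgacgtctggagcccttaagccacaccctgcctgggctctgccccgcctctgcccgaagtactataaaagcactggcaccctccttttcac
Ifi44: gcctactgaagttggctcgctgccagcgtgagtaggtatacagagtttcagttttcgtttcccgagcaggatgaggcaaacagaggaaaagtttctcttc

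Isg15 held 3 overlapping cores, the nearest starting at position -66 from the start of transcription, whereas the core of Oas3 started at -75 and the nearest of 2 overlapping cores of Oas1a at -14. No core was found in these windows of Irf7 and Ifi44. Of the 43 genes, 32 had a RefSeq promoter entry, and 12 of these (37.5%) had a core within 250 bases upstream, compared with 936 of 27025 genes (3.46%). With the core followed by C the numbers were 8 of 32 (25%) and 215 of 27025 (0.796%). The 12 were Bst2, Ifi203, Ifi205, Ifit1, Ifit3, Isg15, Oas1a, Oas1g, Oas3, Rsad2, Stat2 and Trim30a, so that genes of the same family differed in it. A match is no evidence that the site is used, and its absence says only that these letters are not in the window.

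Libraries held between 80772922 and 101043568 counts in genes, and values are given as CPM, which are counts scaled to a common library total after TMM normalization. Genes of proteins in the gate (Ptprc, Itgam and Ly6c2) and other monocyte genes (Ccr2, Csf1r and Lyz2) were present in every group, with a summed level between 37889 and 122358 CPM. Replicates differed by far more than counting noise, with a chi-square per gene between 45.5 and 860 over 36 pairs, so that none was a second deposit of another. LN4K1 lung TIM replicate 3 and lymph node TIM replicate 1 stood apart from their groups, with mean correlations of 0.905 and 0.843 with the other libraries of the group, against at least 0.958 and 0.924 for the other libraries of those groups. The counts of genes called against BM IMs are given with and without them. For the other comparisons of TIMs, ranges with 1 library left out are given. In sorted bulk RNA, a change in the share of cells that express a gene cannot be told from a change in RNA per cell.

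All 43 genes were higher in LN2E1 TIMs than in FVB BM IMs, both in primary tumors and in lymph nodes, and the 2 bone marrow baselines were themselves far apart. Taken as the median over the 43 genes of each library's log2 CPM minus the FVB BM IM mean, FVB BM IMs ranged from -0.10 to 0.08, DBA2 BM IMs from 1.37 to 1.87, LN4K1 lung TIMs from 1.74 to 2.13, primary tumor TIMs from 2.01 to 2.49, and lymph node TIMs from 2.49 to 2.98. FVB BM IMs thus had the lowest level in this order without overlap, DBA2 BM IMs overlapped LN4K1 lung TIMs, and these overlapped primary tumor TIMs.

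**Figure D1:**
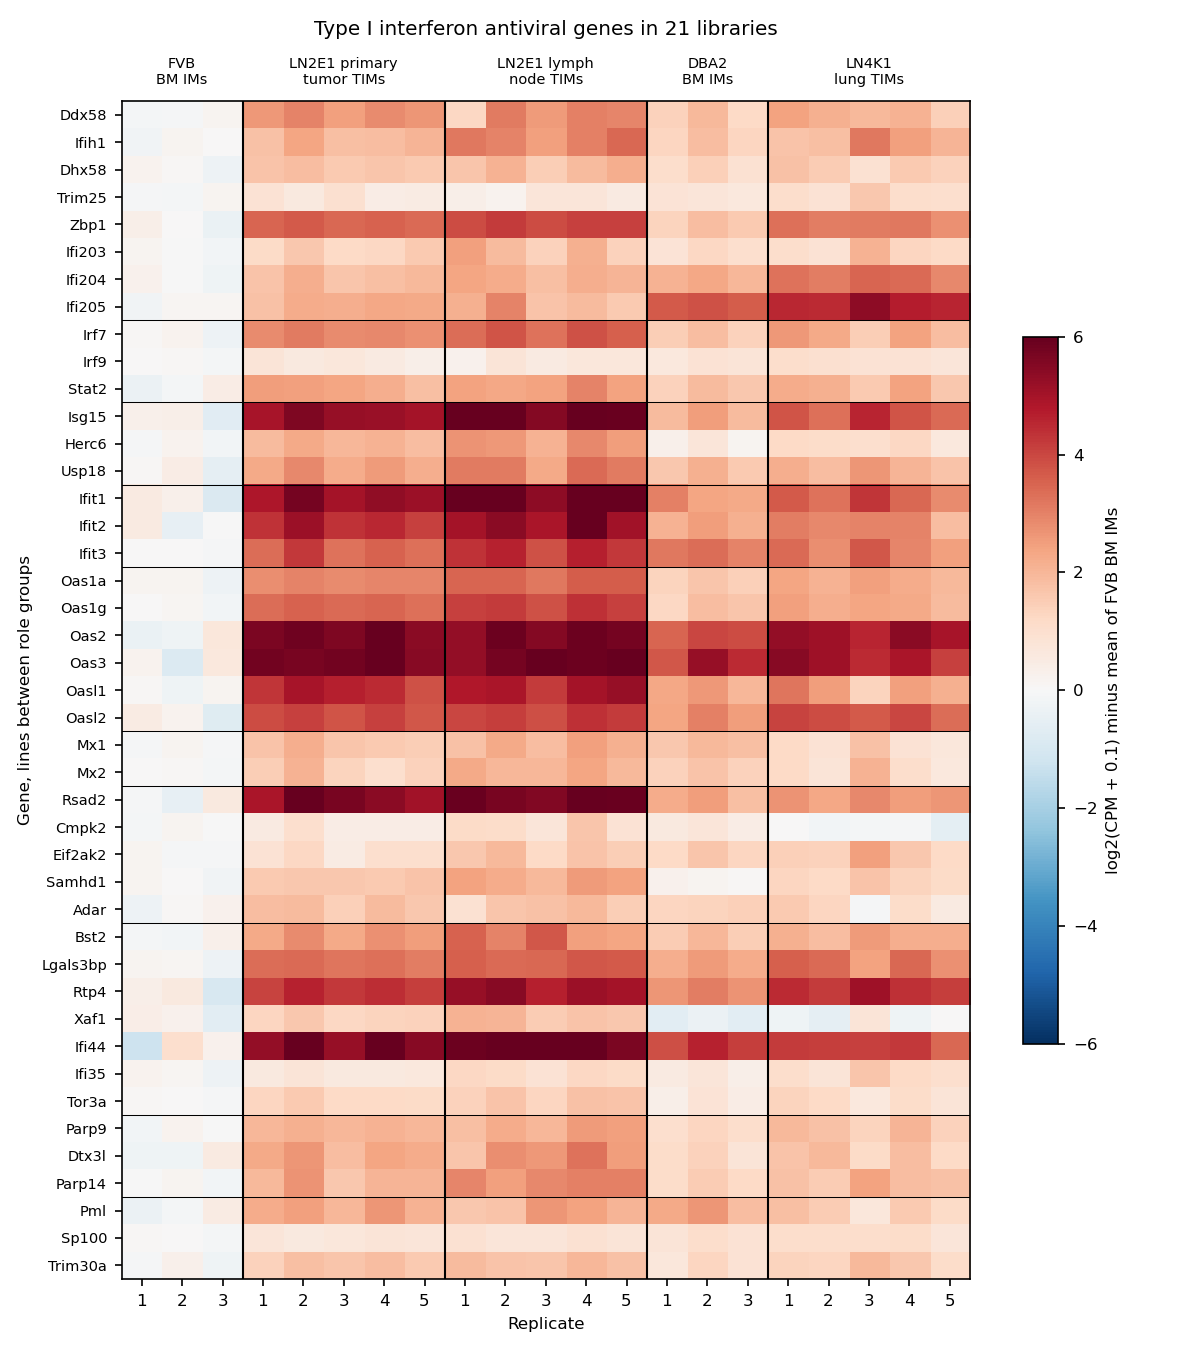
Each row is 1 of the 43 type I interferon antiviral genes and each column 1 of the 21 libraries, and color gives log2(CPM + 0.1) minus the mean of FVB BM IMs, from blue (lower) to red (higher). DBA2 BM IMs are red for 42 of the 43 genes, with Xaf1 the exception.

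Counts were tested with the quasi-likelihood fit of edgeR, p-values were adjusted by Benjamini and Hochberg's method over every gene tested, and a gene was called higher or lower at an adjusted p below 0.05. Of the 43 genes, 43 rose in primary tumor TIMs compared with FVB BM IMs, beside 33.3% of the 14569 genes tested, and none fell, beside 28.6%. Their median change was 2.23 in log2 units, a 4.69-fold rise, whereas that of all genes was 0.08. In lymph node TIMs 43 of 43 rose against the same FVB libraries, beside 20.2% of 13273 genes, and none fell, beside 17.2%, with a median of 2.61 (6.11-fold) against -0.04 for all genes. The ranges of TIMs and BM IMs did not overlap for any of the 43 genes in either site, compared with 30.6% of all genes in primary tumors and 19.7% in lymph nodes that lay wholly above (27.4% and 23.2% lay wholly below). None was lower at an unadjusted p below 0.05 by edgeR, or by DESeq2 with adjustment. The study used DESeq2 with shrunken fold changes and asked for an adjusted p below 0.0001 together with a log2 change of more than 1 in size. With such fold changes by DESeq2, 37 of the 43 were higher in primary tumors and 40 in lymph nodes. The share of all genes by DESeq2 is not given here. At these thresholds by edgeR, 35 were higher in primary tumors, beside 7.72% of all genes higher and 5.18% lower. In lymph nodes 28 were higher by edgeR, beside 4.01% higher and 1.7% lower. The edgeR counts at these thresholds moved with single libraries, to 22 and 23 in primary tumors without FVB BM IM replicates 1 and 2. In lymph nodes the count was between 18 and 19 without any of the FVB libraries or lymph node TIM replicate 2. Without lymph node TIM replicate 1, 43 genes rose and 32 passed these thresholds by edgeR.

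LN4K1 lung TIMs differed less from DBA2 BM IMs. Of the 43 genes, 9 rose (20.9%, beside 13.9% of the 13624 genes tested) and 3 fell (6.98%, beside 11%), and 31 did not pass the test. The 9 were Isg15, Oas1a, Oas2, Oasl2, Rtp4, Zbp1, Ifi204, Ifi205 and Samhd1, and the 3 were Mx1, Cmpk2 and Pml. The median log2 fold change was 0.46 (1.38-fold), against 0.03 for all genes. Ranges lay wholly above those of DBA2 BM IMs for 14 genes (32.6%, beside 19.2% of all genes) and wholly below for 2, Cmpk2 and Pml (4.65%, beside 15.3%). None of the 43 passed the thresholds of the study by edgeR, beside 1.21% of all genes higher and 1.76% lower. By DESeq2, 7 did with shrunken fold changes, as the study used, and 8 with unshrunken ones. At an unadjusted p under 0.05 by edgeR, 18 were higher and 3 lower. The count depended on single libraries, since 18 rose and 4 fell without LN4K1 lung TIM replicate 3, 14 rose and 1 fell without replicate 5, and 1 fell without DBA2 BM IM replicate 1 or 2. Among the genes called only after replicate 3 was left out were Herc6 (0.58 ± 0.19), Parp9 (0.64 ± 0.16), Oas1g (0.54 ± 0.18), Ifi35 (0.41 ± 0.13) and Tor3a (0.50 ± 0.16), whose values with it were 0.56, 0.56, 0.57, 0.56 and 0.41.

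**Figure D2:**
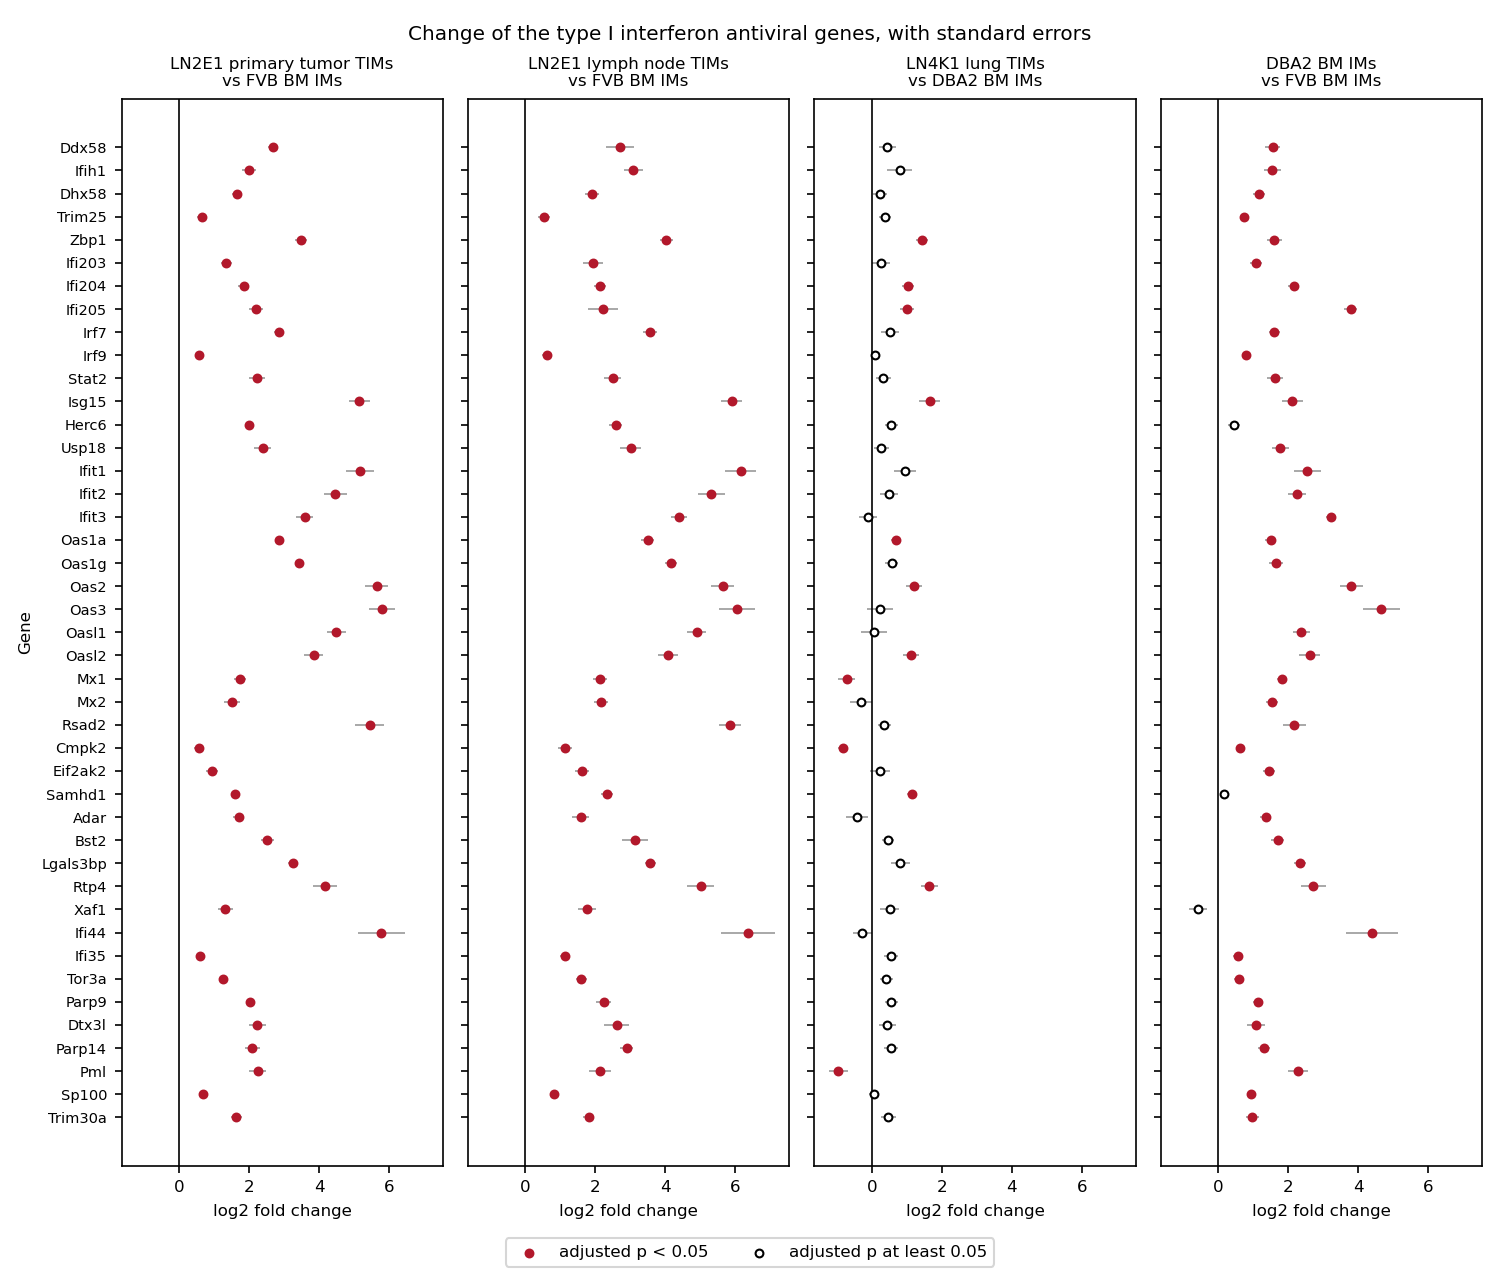
Points are log2 fold changes of the 43 genes in 4 comparisons and bars are standard errors, with filled points at an adjusted p under 0.05 by edgeR. All points are filled in both LN2E1 panels, 12 are filled in the LN4K1 panel, and 40 are filled in the panel that compares the bone marrow of the strains.

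In bone marrow alone, 40 of the 43 genes were higher in DBA2 than in FVB mice, beside 11.5% of the 12905 genes tested, and none was lower (9.57% of all genes). The median log2 difference was 1.60 (3.03-fold), against 0.00 for all genes, and 40 genes did not overlap between the strains, compared with 20.5% of all genes above and 21.6% below. The 3 that did not pass were Samhd1 (0.17 ± 0.11 on the log2 scale, SE), Herc6 (0.45 ± 0.18) and Xaf1 (-0.58 ± 0.25, adjusted p = 0.13 by edgeR), an inhibitor of XIAP. By DESeq2 none was lower either, whereas 1 was lower by edgeR at an unadjusted p under 0.05, and 1 at the adjusted threshold without FVB BM IM replicate 3. Since reads of both strains were aligned to the C57BL/6J reference, sequence differences between the strains could change these values, and their part was not tested.

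Of the transcription factors, Irf7 and Stat2 changed more than Irf9 in LN2E1 TIMs. Irf7 was measured at 98.3, 109 and 74.8 CPM in FVB BM IMs, at 666, 801, 655, 689.9 and 611 in primary tumor TIMs, at 942, 1280.3, 881, 1294 and 1127 in lymph node TIMs, at 262, 332 and 246 in DBA2 BM IMs and at 569, 449, 257, 492 and 332 in LN4K1 lung TIMs. Both groups of LN2E1 TIMs lay wholly above all BM IMs, whereas LN4K1 lung TIMs overlapped DBA2 BM IMs through replicates 3 and 5. The log2 fold changes were 2.85 ± 0.15 (SE) in primary tumors and 3.57 ± 0.20 in lymph nodes, with adjusted p = 4.9e-07 and 1.2e-06 by edgeR, and 0.53 ± 0.26 in LN4K1 lung TIMs (adjusted p = 0.17). Without LN4K1 lung TIM replicate 3 the lung value was 0.66 ± 0.18 (adjusted p = 0.020 by edgeR). The difference between the strains in bone marrow was 1.60 ± 0.16.

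Stat2, which encodes a subunit of the interferon-activated complex, was at 28.5, 34 and 50 CPM in FVB BM IMs, at 206, 199, 189.9, 167 and 129 in primary tumor TIMs, at 197, 183, 192, 288 and 194 in lymph node TIMs, at 94.3, 134 and 112 in DBA2 BM IMs and at 169.8, 158, 109.7, 192 and 112 in LN4K1 lung TIMs. It was higher in every LN2E1 TIM library than in any FVB BM IM library, and the DBA2 baseline exceeded the FVB baseline and overlapped primary tumor TIMs. Its log2 fold changes were 2.23 ± 0.23 in primary tumors, 2.50 ± 0.24 in lymph nodes and 0.33 ± 0.22 in LN4K1 lung TIMs, the last not passing the test (adjusted p = 0.32 by edgeR). Irf9, which gives the complex its DNA binding, was at 98.6, 99.9 and 89.1 CPM in FVB BM IMs, at 161, 144, 152, 138 and 121 in primary tumor TIMs, at 114, 162, 138, 156 and 156 in lymph node TIMs, at 147, 176 and 163 in DBA2 BM IMs and at 197, 189, 174, 177 and 158 in LN4K1 lung TIMs. It had log2 rises of 0.57 and 0.60 in the LN2E1 sites, less than the baselines differed (0.78), and DBA2 BM IMs overlapped both groups of LN2E1 TIMs.

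**Figure D3:**
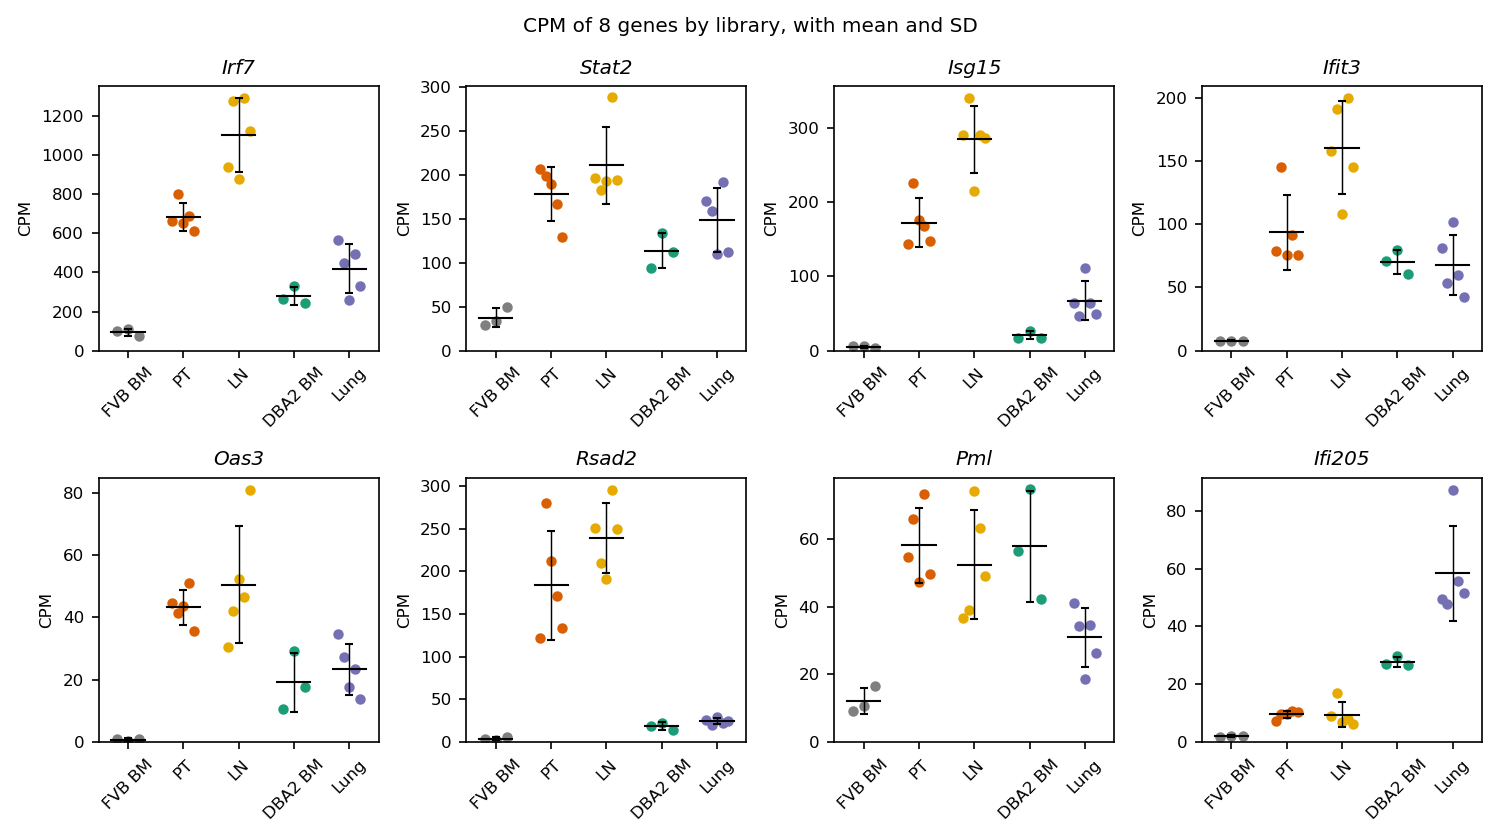
CPM of 8 genes in each library (points), with the mean (horizontal line) and SD (bars) of FVB BM IMs, LN2E1 primary tumor TIMs (PT), LN2E1 lymph node TIMs (LN), DBA2 BM IMs and LN4K1 lung TIMs (Lung). Rsad2 stands between 122 and 295 CPM in LN2E1 TIMs and at or below 29.8 in all other libraries, whereas Ifi205 is higher in both DBA2 groups than in any FVB group.

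All 8 nucleic acid sensors and their partners rose in both LN2E1 sites (beside 33.3% and 20.2% of all genes). In LN4K1 lung TIMs 3 rose (beside 13.9%), and all 8 were higher in DBA2 than in FVB bone marrow (beside 11.5%). Zbp1, a sensor of Z-form nucleic acid, was at 37.5, 30 and 21.8 CPM in FVB BM IMs, at 329.6, 375, 319.5, 337 and 309.6 in primary tumor TIMs, at 443, 542, 439, 495 and 495 in lymph node TIMs, at 72.6, 106 and 87 in DBA2 BM IMs and at 289.6, 247, 254, 259 and 192 in LN4K1 lung TIMs. None of the 3 TIM groups overlapped its own baseline, with log2 fold changes of 3.48 ± 0.17, 4.03 ± 0.20 and 1.43 ± 0.18 for primary tumor, lymph node and LN4K1 lung TIMs (adjusted p = 3.8e-04 by edgeR for the last). Ifih1, which encodes the RNA sensor MDA5, was at 2.34, 3.04 and 2.79 CPM in FVB BM IMs, at 9.55, 14.4, 9.57, 10.1 and 11.3 in primary tumor TIMs, at 25, 21.8, 15.6, 22.6 and 30.2 in lymph node TIMs, at 6.83, 9.89 and 6.78 in DBA2 BM IMs and at 9.2, 9.64, 25.2, 15.5 and 11.5 in LN4K1 lung TIMs. Its lymph node values all exceeded those of primary tumors, and LN4K1 lung TIM replicate 3 was above the other 4 lung libraries.

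Ddx58, which encodes the RNA sensor RIG-I, had log2 rises of 2.68 and 2.70 in primary tumor and lymph node TIMs, whereas Trim25, the ligase that acts on RIG-I, rose by 0.67 and 0.53. Ifi205, a member of the cluster of interferon-inducible DNA-binding genes on chromosome 1, followed another pattern. It was at 1.75, 2.2 and 2.21 CPM in FVB BM IMs, at 7.2, 9.86, 9.69, 10.6 and 10.4 in primary tumor TIMs, at 9.16, 16.9, 6.9, 7.97 and 6.21 in lymph node TIMs, at 27.1, 29.8 and 26.5 in DBA2 BM IMs and at 49.5, 47.6, 87.2, 55.6 and 51.5 in LN4K1 lung TIMs. Both groups of DBA2 mice exceeded every library of FVB mice, tumor or not, and LN4K1 lung TIMs exceeded DBA2 BM IMs by 1.004 ± 0.21 on the log2 scale (adjusted p = 0.0068 by edgeR). Of its 50-base stretches 18.6% also occur in transcripts of other genes of the cluster, and 20.02% for Ifi204, so that reads could have been assigned to a neighbor. Ifi204 rose by 1.85, 2.13 and 1.04 and was higher by 2.15 in DBA2 than in FVB bone marrow.

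Of the ISG15 system, Isg15, a ubiquitin-like protein that is joined to other proteins, was at 5.72, 5.86 and 2.86 CPM in FVB BM IMs, at 143, 226, 176, 168 and 147 in primary tumor TIMs, at 290.3, 339, 215, 290.3 and 286 in lymph node TIMs, at 17.1, 26.7 and 17.5 in DBA2 BM IMs and at 64.6, 46.4, 111, 63.7 and 49 in LN4K1 lung TIMs. No TIM group overlapped its baseline, and LN4K1 lung TIM replicate 3 was the highest of the lung libraries. Isg15 had log2 rises of 5.15 ± 0.30 in primary tumors, 5.90 ± 0.31 in lymph nodes and 1.65 ± 0.31 in LN4K1 lung TIMs, the last at adjusted p = 0.0042 by edgeR, and by 1.39 ± 0.20 without replicate 3. Per kilobase of exon it had the highest mean of the 43 genes in both LN2E1 groups, at 227 and 376 CPM per kilobase, whereas Samhd1 was highest in LN4K1 lung TIMs (171).

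Usp18, which removes ISG15 and blocks the IFNAR receptor, was at 21.9, 28.2 and 14.5 CPM in FVB BM IMs, at 102, 152, 98.7, 123 and 94.5 in primary tumor TIMs, at 178, 180.2, 99.8, 217 and 184 in lymph node TIMs, at 63.7, 90.7 and 62.5 in DBA2 BM IMs and at 94.7, 74.7, 132, 85.7 and 69.3 in LN4K1 lung TIMs. It rose in both LN2E1 sites (2.39 ± 0.24 and 3.01 ± 0.30), whereas LN4K1 lung TIMs overlapped DBA2 BM IMs and did not pass (0.27 ± 0.23, adjusted p = 0.43 by edgeR). Herc6, the main ISG15 ligase of mice, rose by 2.01 and 2.58 in LN2E1 TIMs, and its difference between the strains in bone marrow was 0.45 (adjusted p = 0.11 by edgeR).

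The IFIT genes, which encode binders of viral RNA and lie together on chromosome 19, rose in LN2E1 TIMs with log2 fold changes from 3.59 to 5.17 in primary tumors and from 4.39 to 6.15 in lymph nodes. None passed in LN4K1 lung TIMs (beside 13.9% of all genes higher and 11% lower). All 3 were higher in DBA2 than in FVB bone marrow (beside 11.5%). Ifit1 was at 3.95, 3.37 and 1.42 CPM in FVB BM IMs, at 79.7, 151, 89.7, 109 and 98 in primary tumor TIMs, at 202, 218, 116, 291 and 198 in lymph node TIMs, at 22.1, 14.2 and 13.5 in DBA2 BM IMs and at 35.7, 26.1, 54.9, 30.4 and 19.9 in LN4K1 lung TIMs. Ifit2 was at 12.7, 6.23 and 8.62 CPM in FVB BM IMs, at 178, 308, 179, 204 and 153 in primary tumor TIMs, at 287, 374, 265, 601 and 294 in lymph node TIMs, at 38, 51.1 and 39.2 in DBA2 BM IMs and at 73.7, 65.6, 71.1, 71 and 32.5 in LN4K1 lung TIMs. Ifit3 was at 7.91, 7.82 and 7.34 CPM in FVB BM IMs, at 79, 145, 75.5, 91.3 and 75.9 in primary tumor TIMs, at 158, 191, 108, 199.6 and 145 in lymph node TIMs, at 70.6, 79.6 and 60.6 in DBA2 BM IMs and at 81.3, 53.5, 102, 59.8 and 42.2 in LN4K1 lung TIMs. For these genes every LN2E1 TIM library exceeded every FVB BM IM library, whereas LN4K1 lung TIMs and DBA2 BM IMs overlapped. Ifit3 differed most of the 3 between the baselines (3.22 ± 0.14 on the log2 scale) and was at -0.12 ± 0.26 in the lung comparison (adjusted p = 0.79 by edgeR), though 51.2% of its 50-base stretches also occur in another gene, the near copy Ifit3b. The value of Ifit1 in LN4K1 lung TIMs, 0.94 ± 0.32, passed without LN4K1 lung TIM replicate 3 (0.70, adjusted p = 0.044 by edgeR) and without replicate 5 (1.08, adjusted p = 0.033 by edgeR).

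The 6 OAS genes encode enzymes and relatives of enzymes that activate RNase L and lie on chromosome 5. All rose in both LN2E1 sites, beside 33.3% and 20.2% of all genes. Their median changes were 4.17 (primary tumors) and 4.53 (lymph nodes) on the log2 scale. Oas2 was at 2.15, 2.42 and 4.62 CPM in FVB BM IMs, at 151, 168, 143, 193 and 128 in primary tumor TIMs, at 115, 174, 134, 178 and 159 in lymph node TIMs, at 33.7, 47.5 and 45.6 in DBA2 BM IMs and at 116, 102, 70, 128 and 91.1 in LN4K1 lung TIMs. It had log2 rises of 5.65 ± 0.32, 5.63 ± 0.34 and 1.20 ± 0.22 over the 3 TIM groups, and no TIM group overlapped its baseline. Oas3 was at 0.822, 0.347 and 1.13 CPM in FVB BM IMs, at 44.6, 41.3, 43.5, 51 and 35.5 in primary tumor TIMs, at 30.6, 42, 52.3, 46.4 and 80.8 in lymph node TIMs, at 10.6, 29.3 and 17.6 in DBA2 BM IMs and at 34.5, 27.3, 17.7, 23.3 and 13.8 in LN4K1 lung TIMs. It was at most 1.13 CPM in every FVB BM IM library, differed by 4.66 ± 0.53 between the strains in bone marrow, rose by 5.79 ± 0.37 in primary tumors and 6.04 ± 0.51 in lymph nodes, and was at 0.22 ± 0.37 in LN4K1 lung TIMs (adjusted p = 0.72 by edgeR), whose values overlapped those of DBA2 BM IMs. In the lung comparison Oas1a and Oasl2 rose with Oas2, by 0.69 and 1.11, and Oasl1, a relative without the enzyme activity, was at 0.06. Oas1a and Oas1g shared 57.6% and 45.7% of their 50-base stretches with other genes, and their counts are uncertain for that reason.

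Working Mx genes encode GTPases that block viral replication, although the reference annotation lists Mx2 as a polymorphic pseudogene. Mx1 was at 14.8, 17.5 and 15.1 CPM in FVB BM IMs, at 52, 72.9, 50, 47.6 and 43.3 in primary tumor TIMs, at 53.2, 77.5, 57.2, 86.2 and 70.1 in lymph node TIMs, at 47.8, 60 and 55.6 in DBA2 BM IMs and at 35.7, 28.5, 53.6, 29 and 25.5 in LN4K1 lung TIMs. Mx2 was at 7.29, 7.52 and 6.64 CPM in FVB BM IMs, at 20.4, 30.5, 18.2, 14.5 and 18.9 in primary tumor TIMs, at 35, 28.7, 28.4, 37.8 and 28 in lymph node TIMs, at 19, 24 and 18.5 in DBA2 BM IMs and at 16.4, 12.4, 30.7, 15.1 and 11.3 in LN4K1 lung TIMs. In 4 of the 5 LN4K1 lung libraries both genes lay below every DBA2 BM IM library, whereas replicate 3 was within their range for Mx1 and above it for Mx2. Mx1 fell by 0.72 (adjusted p = 0.049 by edgeR), a call that was lost without any 1 library other than LN4K1 lung TIM replicate 3 and held at -0.93 ± 0.14 without that one, and Mx2 was at -0.32 ± 0.31 with it and -0.63 ± 0.17 without it (adjusted p = 0.019 by edgeR). In LN2E1 TIMs Mx1 rose by 1.74 and 2.13 and Mx2 by 1.503 and 2.15.

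Of the effectors that act on nucleotides and RNA, Rsad2, which encodes viperin, was at 3.7, 2.78 and 5.96 CPM in FVB BM IMs, at 122, 279.7, 212, 171 and 133 in primary tumor TIMs, at 250.5, 209.6, 190.4, 295 and 249.8 in lymph node TIMs, at 18.8, 22.8 and 13.9 in DBA2 BM IMs and at 26.3, 20.1, 29.8, 22.6 and 25.1 in LN4K1 lung TIMs. LN2E1 TIMs exceeded all other libraries, LN4K1 lung TIMs included, with log2 fold changes of 5.45 ± 0.41 and 5.85 ± 0.32, whereas the lung value of 0.36 ± 0.19 did not pass (adjusted p = 0.22 by edgeR). Cmpk2, a nucleotide kinase that lies beside Rsad2 on chromosome 12, rose by 0.57 and 1.14 in LN2E1 TIMs and fell by 0.83 in LN4K1 lung TIMs (adjusted p = 0.0028 by edgeR). Samhd1, which degrades deoxynucleotides, was at 686, 625 and 532 CPM in FVB BM IMs, at 1818, 1896, 1854, 1835 and 1986 in primary tumor TIMs, at 3291, 2875, 2335, 3585 and 3275 in lymph node TIMs, at 726, 679 and 636 in DBA2 BM IMs and at 1517, 1379, 2008, 1536 and 1372 in LN4K1 lung TIMs. It differed little between the baselines (0.17 ± 0.11) and rose in all 3 TIM groups, by 1.60, 2.33 and 1.14, with no overlap. Eif2ak2, the RNA-activated kinase PKR, rose by 0.93 and 1.62, and Adar, the RNA editing enzyme, by 1.71 and 1.58, in LN2E1 TIMs.

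Rtp4, a chaperone of receptors that dampens the interferon response, was at 8.92, 10.7 and 3.61 CPM in FVB BM IMs, at 118, 172, 134, 152 and 128 in primary tumor TIMs, at 266, 315, 178, 249 and 229 in lymph node TIMs, at 44.4, 59.6 and 45.7 in DBA2 BM IMs and at 159.6, 130.1, 246, 149.8 and 125 in LN4K1 lung TIMs. It rose in all 3 TIM groups (4.18 ± 0.35, 5.01 ± 0.39 and 1.63 ± 0.24), with LN4K1 lung TIM replicate 3 the highest lung library, and by 1.44 ± 0.14 in the lung without it. Lgals3bp, a secreted glycoprotein, was at 27.8, 27.4 and 20.2 CPM in FVB BM IMs, at 255, 262, 233, 247 and 209 in primary tumor TIMs, at 296, 265, 269, 331 and 319 in lymph node TIMs, at 113, 147 and 116 in DBA2 BM IMs and at 303, 264, 134, 269 and 169.7 in LN4K1 lung TIMs. It rose by 3.25 and 3.57 in LN2E1 TIMs, and its lung value of 0.81 ± 0.27 (adjusted p = 0.058 by edgeR) became 0.95 ± 0.20 without replicate 3 (adjusted p = 0.0045 by edgeR). Bst2, which encodes tetherin, rose by 2.53 and 3.12 in LN2E1 TIMs.

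Ifi44, a less characterized member, was at 0.0343, 0.54 and 0.288 CPM in FVB BM IMs, at 12.4, 22.6, 12.1, 20.5 and 13.9 in primary tumor TIMs, at 18.9, 33, 27.2, 23.5 and 16.1 in lymph node TIMs, at 4.55, 7.92 and 5.63 in DBA2 BM IMs and at 5.71, 5.57, 5.46, 5.91 and 3.36 in LN4K1 lung TIMs. It rose by 5.78 ± 0.66 and 6.36 ± 0.76 in LN2E1 TIMs from a baseline that held 3 counts in FVB BM IM replicate 1, so that the size of these changes is imprecise. The lung value was -0.27 ± 0.27 (adjusted p = 0.51 by edgeR). Parp14, an ADP-ribosyl transferase, was at 14, 15.9 and 12.8 CPM in FVB BM IMs, at 54.9, 91.1, 44, 58.8 and 59.5 in primary tumor TIMs, at 109.9, 77.7, 107, 116 and 115 in lymph node TIMs, at 30.8, 40.6 and 32.3 in DBA2 BM IMs and at 47.7, 40.9, 76.6, 50.8 and 48.9 in LN4K1 lung TIMs. Its LN4K1 lung values all exceeded those of DBA2 BM IMs, but the change of 0.55 ± 0.21 did not pass the test (adjusted p = 0.081 by edgeR). Without LN4K1 lung TIM replicate 3 it was 0.39 ± 0.13 and passed (adjusted p = 0.040 by edgeR). Dtx3l, which forms a ligase with Parp9, was at 21.2, 21 and 36.6 CPM in FVB BM IMs, at 122, 159.6, 92.3, 133 and 119 in primary tumor TIMs, at 81.3, 177, 157, 239.9 and 146 in lymph node TIMs, at 54.9, 66.4 and 42.8 in DBA2 BM IMs and at 84, 98.5, 56.1, 92.1 and 57.2 in LN4K1 lung TIMs. It rose by 2.23 and 2.61 in LN2E1 TIMs and Parp9 by 2.02 and 2.24, although exons of the 2 genes overlap on opposite strands and the libraries were not stranded.

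Pml, the scaffold of PML nuclear bodies, was at 9.13, 10.6 and 16.5 CPM in FVB BM IMs, at 54.7, 65.8, 47.3, 73.2 and 49.8 in primary tumor TIMs, at 36.6, 39, 74.2, 63.2 and 49.1 in lymph node TIMs, at 56.4, 74.9 and 42.1 in DBA2 BM IMs and at 41.2, 34.3, 18.5, 34.6 and 26.3 in LN4K1 lung TIMs. It rose by 2.25 ± 0.24 and 2.12 ± 0.31 in LN2E1 TIMs and fell by 0.96 in LN4K1 lung TIMs (adjusted p = 0.029 by edgeR), whose values all lay below those of DBA2 BM IMs. The fall did not pass without DBA2 BM IM replicate 1 (-0.98, adjusted p = 0.074), DBA2 BM IM replicate 2 (-0.72, adjusted p = 0.14) or LN4K1 lung TIM replicate 5 (-0.90, adjusted p = 0.067), all by edgeR. Trim30a, a TRIM family regulator, was at 60, 78 and 53.6 CPM in FVB BM IMs, at 163, 224, 200.02, 227 and 185 in primary tumor TIMs, at 239, 208, 198, 253 and 211 in lymph node TIMs, at 99.9, 152 and 115 in DBA2 BM IMs and at 159.6, 153, 245, 192 and 134 in LN4K1 lung TIMs. It rose by 1.63 and 1.81 in LN2E1 TIMs, and Sp100, another nuclear body protein, by 0.68 and 0.83.

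Between the LN2E1 sites, 14 of the 43 genes were higher in lymph node than in primary tumor TIMs (32.6%, beside 6.15% of the 13488 genes tested), none was lower (5.55% of all genes), and the median log2 difference was 0.43, against -0.03 for all genes. No gene was lower at an unadjusted p under 0.05 by edgeR or at an adjusted p under 0.05 by DESeq2. The ranges of the sites did not overlap for 9 genes (20.9%, beside 5.54% above and 8.87% below for all genes). Ifih1 (1.08 ± 0.19, adjusted p = 0.0052), Ifit1 (0.97 ± 0.23, adjusted p = 0.021) and Rtp4 (0.83 ± 0.15, adjusted p = 0.0058) differed most by edgeR among the 14 called, and Irf7 and Isg15 were higher by 0.70 and 0.74. Ifit1 did not pass without primary tumor TIM replicate 1, 4 or 5, where its edgeR adjusted p was between 0.052 and 0.055, and without any of these 3 libraries 9 of the 43 genes passed.

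The change in LN2E1 primary tumors was set against that in LN4K1 lungs in 1 fit of the 4 groups. For 39 of the 43 genes the rise was larger in LN2E1 primary tumors (90.7%, beside 13.2% of the 15182 genes tested), for none was it smaller (13.3% of all genes), and the median difference of the log2 fold changes was 2.07, against 0.08 for all genes. No gene had a smaller rise at an unadjusted p under 0.05 by edgeR or by DESeq2 with adjustment. The largest differences were those of Ifi44 (6.08 ± 0.70, adjusted p = 7.7e-05), Oas3 (5.58 ± 0.56, adjusted p = 2.7e-05) and Rsad2 (5.11 ± 0.42, adjusted p = 7.2e-06) by edgeR. Xaf1, Eif2ak2, Ifi35 and Trim25 did not pass.

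That difference is by construction the strain difference in bone marrow minus the difference between LN4K1 lung TIMs and primary tumor TIMs. For 35 of the 39 genes (89.7%) the bone marrow difference was the larger of the 2 in size. The 39 were picked by a value that holds this difference, which favors genes with a large bone marrow difference. The median over all 43 genes of DBA2 minus FVB BM IMs was 1.58 in log2 CPM, whereas that of LN4K1 lung minus primary tumor TIMs was -0.34. Of all 43 genes, 33 differed by less than 1 in log2 CPM between these TIM groups, and 33 by more than 1 between the baselines. The share over all genes was not computed for any of these counts. Rsad2 was among the exceptions, 2.19 higher in DBA2 than in FVB BM IMs and 2.83 lower in LN4K1 lung than in primary tumor TIMs, and Ifi205 was higher in DBA2 mice in both, by 3.75 between the baselines and 2.58 between these TIM groups.

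**Figure D4:**
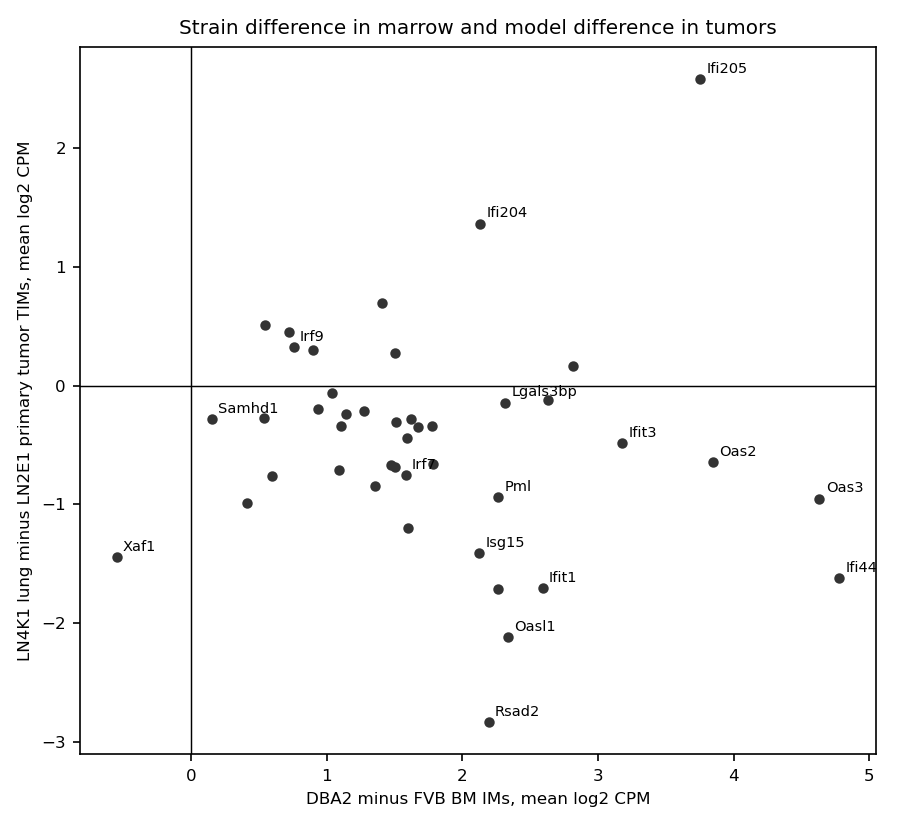
Each point is 1 of the 43 genes, with the difference between DBA2 and FVB BM IMs in mean log2 CPM on the horizontal axis and that between LN4K1 lung and LN2E1 primary tumor TIMs on the vertical axis. Most points lie right of 0 and near 0 in height, 34 below it and 9 above.

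Against the baseline of the other strain the picture changed. Primary tumor TIMs compared with DBA2 BM IMs had 29 genes higher (beside 33.9% of all genes) and 2 lower (Ifi205 and Eif2ak2, beside 27.5%), with a median log2 fold change of 0.87. Lymph node TIMs had 33 higher (beside 20.6%) and 1 lower (Ifi205, beside 17.5%), with a median of 1.23. LN4K1 lung TIMs compared with FVB BM IMs had 40 higher (beside 18.1%) and none lower (beside 14.9%), with a median of 1.996, by edgeR and adjusted as before. These cross-strain values mix strain with tumor and are given only to show how far the counts rest on the baseline.

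Genes of the pathway around the 43 were read from fixed lists. Of 21 interferon genes, 19 were in the table and nearly all were at or near 0, with a summed level of at most 1.28 CPM in any library, and Ifnb1 had at most 14 counts. Ifnar2, which encodes a chain of the type I interferon receptor, fell by 0.41 on the log2 scale in LN4K1 lung TIMs (adjusted p = 0.026 by edgeR), and was 0.88 ± 0.11 higher in DBA2 than in FVB BM IMs.

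Of 12 upstream adaptors, kinases and IRFs, 6 rose and 2 fell in primary tumor TIMs (beside 33.3% and 28.6% of all genes), 5 rose and 2 fell in lymph node TIMs (beside 20.2% and 17.2%), and 3 rose and none fell in LN4K1 lung TIMs (beside 13.9% and 11%). Irf1, which is induced by type I and type II interferon, rose by 2.87, 3.60 and 1.86, and its baselines differed by -0.01 ± 0.23. A list of 8 genes comprised inhibitors of the signal, the exonuclease gene Isg20 and the ISG15-conjugating enzymes Ube2l6 and Uba7. Of these, 6, 7 and 4 rose in primary tumor, lymph node and LN4K1 lung TIMs, beside 33.3%, 20.2% and 13.9% of all genes. In DBA2 bone marrow 4 of the 12 upstream genes were higher than in FVB, beside 11.5% of all genes. Of the list of 8, 1 was higher, which is near that share.

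Of 11 genes best known as targets of interferon-gamma, 11 rose in primary tumor, 10 in lymph node and 10 in LN4K1 lung TIMs. The shares of all genes were 33.3%, 20.2% and 13.9%, and the medians of the list were 5.62, 6.16 and 3.68 on the log2 scale. In bone marrow, 2 of the 10 tested were higher in DBA2 than in FVB BM IMs (beside 11.5% of all genes), with a median of 0.59. Gbp2, a guanylate-binding protein gene, rose by 5.40 ± 0.38, 6.16 ± 0.44 and 3.20 ± 0.21, and Cd274, which encodes PD-L1, by 7.17 ± 0.28, 7.91 ± 0.34 and 3.68 ± 0.30, all called by edgeR, and their baselines differed by 0.90 ± 0.35 and 0.65 ± 0.37, neither passing. The difference between this list and the antiviral genes was not tested.

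Markers of other cells also differed between the groups, not all in the direction of the antiviral genes. Plasmacytoid dendritic cells have Ly6C and high levels of Irf7. They were represented by 7 markers, whose summed level was between 32.3 and 39.9 CPM in FVB BM IMs, 45.1 and 47.2 in DBA2 BM IMs, 228 and 496 in primary tumor TIMs, 163 and 1334 in lymph node TIMs, and 111 and 167 in LN4K1 lung TIMs. By edgeR, 6 of the 7 rose in each TIM group, beside 33.3%, 20.2% and 13.9% of all genes in the same order. Siglech, a defining surface marker, averaged 0.73 and 0.16 CPM in FVB and DBA2 BM IMs and 121, 243 and 25.5 CPM in primary tumor, lymph node and LN4K1 lung TIMs. Among lymph node TIMs, Siglech was highest in replicate 3 (476 CPM), where Irf7 was lowest (881 CPM), and lowest in replicate 5 (37.0 CPM), where Irf7 was at 1127 CPM. Bst2 followed Siglech in these libraries, highest in replicate 3 (243 CPM) and lowest in replicate 5 (94.4 CPM). In primary tumor TIMs Irf7 and Bst2 were highest in replicate 2 (801 and 131 CPM), where Siglech was at 167 CPM. The summed level of 7 nonclassical monocyte markers was between 269 and 443 CPM in FVB BM IMs, 753 and 835 in DBA2 BM IMs and 1979 and 3794 over the 3 TIM groups. By edgeR, 5, 6 and 4 of these rose in primary tumor, lymph node and LN4K1 lung TIMs, and 1, 0 and 1 fell. The shares of all genes that fell were 28.6%, 17.2% and 11%. In DBA2 bone marrow 4 were higher and 2 lower than in FVB, beside 11.5% and 9.57% of all genes. That of 7 neutrophil precursor markers was between 2542 and 3624 CPM over both groups of BM IMs and 15.1 and 325 over the TIM groups. Macrophage markers (6 genes) summed to between 1246 and 1456 CPM in FVB BM IMs, 803 and 2095 in DBA2 BM IMs, 2972 and 4002 in primary tumor TIMs, 2750 and 4425 in lymph node TIMs, and 4507 and 6157 in LN4K1 lung TIMs. By edgeR, only 2 of the 6 rose in each TIM group. In LN4K1 lung TIMs 1 fell and the median log2 fold change was -0.23, so that these sums rest on few genes. T cell markers (5 genes) summed to at most 1.66 CPM in BM IMs and 25.7 CPM in TIMs. NK cell markers (5 genes) summed to between 24.8 and 28.5 CPM in FVB BM IMs and at most 6.86 CPM in LN2E1 TIMs. They summed to between 2.70 and 6.08 CPM in DBA2 BM IMs, where 4 of the 5 had no counts, and 11.8 and 28.1 CPM in LN4K1 lung TIMs. In LN4K1 lung TIMs 4 of the 5 rose by edgeR, beside 13.9% of all genes. Fibroblast markers (5 genes) summed to between 363 and 1099 CPM in primary tumor TIMs and at most 86.8 CPM elsewhere. The part of these cells in the results was not tested.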

How the data were processed

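Per the methods and the submitters' processing notes, the authors removed adapters with BBDuk, mapped the reads with BBMap to mm10, and obtained the deposited raw counts for each gene symbol with featureCounts 1.5.2 of Subread (SAMtools 1.8 is also named). The annotation and settings used for counting are not given in the sources used here. Libraries were made with an amplifying kit for little RNA and carried no strand.

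CPM were computed from these counts with TMM factors in edgeR 4.0.16 under R 4.3.3. A fit used only the groups that it compared, 4 of them for the interaction. Genes passed edgeR's filter at its preset minimum of 10 for a count and 15 for the total. Robust quasi-likelihood F tests gave p-values, which were adjusted by the method of Benjamini and Hochberg for every gene in the fit, and standard errors were derived from F. The edgeR fit was tested on simulated counts for the comparisons of 1 group with another. The interaction and the DESeq2 fits were not tested in this way. DESeq2 1.42.0, its size factors, other filters, a fit of all groups, a replicate block, the baseline of the other strain and leaving out each library were the alternatives. Python 3.11.15 (numpy 2.4.6, pandas 2.3.3, matplotlib 3.10.9) was used to summarize and plot.

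The 43 genes, the lists and the tests were chosen with earlier results of these data known. Values in every library were given for the 3 transcription factors, for the 2 genes of each other role with the largest called change from BM IMs in any TIM group at a mean log2 CPM above 3, for the 5 such genes that differed most between the strains, and for the 3 that differed most between the LN2E1 sites and between the models. Positions, exon lengths and shared 50-base stretches came from the GENCODE vM21 annotation. The 11 genes without a RefSeq promoter entry were Oas2, Mx1, Mx2, Dhx58, Usp18, Rtp4, Parp9, Parp14, Zbp1, Ifi204 and Tor3a. Genes absent by symbol from the count table, 2 interferon genes among them, were not analysed here. The list of receptor and kinase genes is not reported here as a whole.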

Additional observations from a re-analysis of the deposited data

Results flagged for a closer look

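In 13 of 72 groups of 5 libraries of named genes, 1 library lay far from the other 4, by a rule under which chance gives about 1 in 20 groups. Replicate 3 of LN4K1 lung TIMs was the highest of its group for Isg15 (111.3 CPM), Mx2 (30.7), Samhd1 (2008), Rtp4 (245.9), Parp14 (76.59) and Ifi205 (87.2). Replicate 5 of the same group was the lowest for Ifit2 (32.55 CPM) and Ifi44 (3.36). In lymph node TIMs, Stat2 was highest in replicate 4 (287.9 CPM), Parp14 lowest in replicate 2 (77.69) and Ifi205 highest in replicate 2 (16.87). In primary tumor TIMs, Ifi205 was lowest in replicate 1 (7.196 CPM) and Ifit3 highest in replicate 2 (145.3).

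The change in LN2E1 primary tumors differed from that in LN4K1 lungs for 39 of the 43 genes by the interaction term of edgeR, in all 39 with the larger rise in LN2E1. The difference in log2 fold change was 6.08 for Ifi44, 5.584 for Oas3 and 5.109 for Rsad2.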

How the results depend on the processing

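In LN4K1 lung TIMs, the count of 9 genes higher became 20 with all 5 groups in 1 fit, 5 with the replicate block, 17 with DESeq2 (shrunken or unshrunken) and 40 against the baseline of the other strain, and it ranged from 9 to 18 when 1 library was left out, highest without LN4K1 lung TIM replicate 3. The count of 3 lower became 0 with the block and 0 against the other strain, and ranged from 1 to 4 with 1 library left out. Against the other strain's baseline 2 genes were lower in primary tumor TIMs and 1 in lymph node TIMs, in place of 0. The count of 14 genes higher in lymph node than in primary tumor TIMs was 20 by DESeq2 and ranged from 9 to 19 with 1 library left out, and the count of genes lower in DBA2 than in FVB bone marrow ranged from 0 to 1. The 39 genes of the interaction ranged from 35 to 41. At the thresholds of the study, the 35 genes of primary tumors became 0 with the block and 14 against the other strain and ranged from 22 to 32 with 1 library left out, the 28 of lymph nodes became 39 in 1 fit of all groups, 40 by DESeq2, 0 with the block and 16 against the other strain and ranged from 18 to 32, and the 0 of the lung became 3 in 1 fit, 8 and 7 by DESeq2 without and with shrinkage and 13 against the other strain and ranged from 0 to 2.

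Some log2 changes turned direction. Against the other strain's baseline, Irf9 was at -0.18, Mx2 at -0.0005, Mx1 at -0.033, Ifi205 at -1.54, Eif2ak2 at -0.47, Ifi204 at -0.27, Sp100 at -0.20, Trim25 at -0.035 and Cmpk2 at -0.0061 in primary tumor TIMs, Irf9 at -0.18, Pml at -0.16, Ifi205 at -1.575, Trim25 at -0.21, Sp100 at -0.093 and Ifi204 at -0.018 in lymph node TIMs, and Mx2 at 1.22, Mx1 at 1.08, Pml at 1.32, Ifit3 at 3.10, Ifi44 at 4.13, Adar at 0.94 and Xaf1 at -0.081 in LN4K1 lung TIMs. In LN4K1 lung TIMs, Ifit3 was at 0.070 with the replicate block and ranged from -0.30 to 0.015 with 1 library left out, and Oas3 ranged from -0.070 to 0.67. The cause of these moves was not tested.

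BM IMs came from healthy mice and the models used different strains, so that only libraries of the LN2E1 sites could share a mouse. The labels do not say whether same-numbered ones did. Over all comparisons, the correlations of the deviations of same-numbered libraries lay between -0.24 and 0.23. Against their baselines, 0 of 3 pairs exceeded 0.1 for primary tumor TIMs and for LN4K1 lung TIMs. For lymph node TIMs 2 of 3 did, between the LN2E1 sites 1 of 5, and between the baselines 0 of 3. The correlation was highest with the baseline library of the same number for 0 of 3 primary tumor libraries. For lymph node and LN4K1 lung TIMs it was so for 2 of 3. With 5 pairs these values cannot settle whether the LN2E1 sites shared mice. In the other comparisons same-numbered libraries came from different mice, so that the replicate block paired them by number alone. Besides the counts above, the replicate block left 43 genes higher in primary tumor and 42 in lymph node TIMs, 12 higher in lymph node than in primary tumor TIMs, 40 higher in DBA2 bone marrow and 37 with the larger rise in LN2E1.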
